A study of Mus musculus with 6 samples.

Results

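The 10 genes described here encode the alternative contractile proteins of heart muscle and a stress-inducible protein that sits beside them, measured in the heart ventricles of 3 Trex1 KO and 3 Trex1 WT mice. They are the alpha-actins Acta1, Actc1 and Acta2, the myosin heavy chains Myh6 and Myh7, the atrial myosin light chains Myl4 and Myl7, the troponin I genes Tnni1 and Tnni3, and Ankrd1. They were chosen by gene symbol alone. Of 45101 probe sets on the arrays, 15 carry 1 of these symbols and 2 more carry Myh7 and Myh6 together, so that 17 probe sets report on the 10 genes. All 6 mice lacked Rag2 and so had no mature T or B lymphocytes. The Trex1 KO animals also lacked Trex1, the main DNA exonuclease of mammalian cells, and the Trex1 WT animals carried it intact. The mice formed 3 littermate pairs, A, B and C, each with 1 Trex1 KO and 1 Trex1 WT animal, and each heart was hybridised to 1 single-colour array. Where 3 values are listed for a group, they belong to pairs A, B and C in that order. How the Trex1 allele was deleted, and how old the mice were, is not stated in the labels.

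The sarcomere is built from thick filaments of myosin and thin filaments of actin with the troponin complex, and most of its proteins come in isoforms from separate genes. In rodents the fetal ventricle uses more Acta1, Acta2, Myh7 and Tnni1, and the adult ventricle replaces them with Actc1, Myh6 and Tnni3, while Myl4 and Myl7 become restricted to the atria and Myl3 and Myl2 serve the ventricle. Under load or injury the adult rodent heart can return in part to the fetal isoforms, and Ankrd1, a nuclear and titin-linked ankyrin repeat protein, rises in the same settings.

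The Trex1 probe set, which the platform annotation shares with Atrip, fell to signals of 9.45, 20.6 and 34.2 in Trex1 KO hearts, against 714, 340 and 887 in Trex1 WT hearts (limma adjusted p = 0.00109), as the genotype labels have it. All 7 of 7 markers listed for heart muscle cells lay above 69.8 on average. That value is the highest signal of 27 bacterial control probe sets that have no counterpart in mouse tissue. The dimmest of the 7 was Irx4, with means of 585 in Trex1 KO and 612 in Trex1 WT. RNA quality was read from the 3' to 5' signal ratios of Actb and Gapdh, and only the Actb ratio separated the groups. The Gapdh ratio lay between 0.841 and 0.925 on all arrays. It was lower in the Trex1 KO animal of every pair, but the groups overlapped. For Actb, the 3' probe set over the 5' one gave 1.66, 1.60 and 1.68 in Trex1 KO mice and 2.09, 2.29 and 1.80 in Trex1 WT mice (pairs A, B and C), without overlap. In limma, 59 of 27022 tested probe sets (0.218%) were called higher and 7 (0.0259%) lower in Trex1 KO at a Benjamini-Hochberg adjusted p under 0.05. A log2 difference is the Trex1 KO mean less the Trex1 WT mean on log2(signal + 16).

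None of the members was called in either direction. Of the 10 genes, 9 were bright enough to test, 4 with a positive and 5 with a negative difference, and 0 passed in limma with Benjamini-Hochberg adjustment over all probe sets. With littermate pairs as a block the count was again 0, where 0.389% of all tested probe sets were called higher and 0.0592% lower. At an unadjusted p under 0.05 there were 2 members, Acta1 and Ankrd1, against 5.44% of all tested probe sets. These were also the members whose 3 Trex1 KO arrays all lay above the 3 Trex1 WT arrays, an arrangement found for 5.57% of tested probe sets. No member had its Trex1 KO arrays all below, against 4.99% of probe sets. The median difference of the 9 genes was -0.00, against -0.01 over all tested probe sets. Among members well above background, the fetal actin Acta1 and the stress gene Ankrd1 had differences above 0 in all 3 pairs and the smooth muscle actin Acta2 had differences below 0 in all 3. Each p-value rests on 6 animals with 1 array each. In limma the variance of a probe set is also drawn towards that of other probe sets of like brightness.

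**Figure D1:**
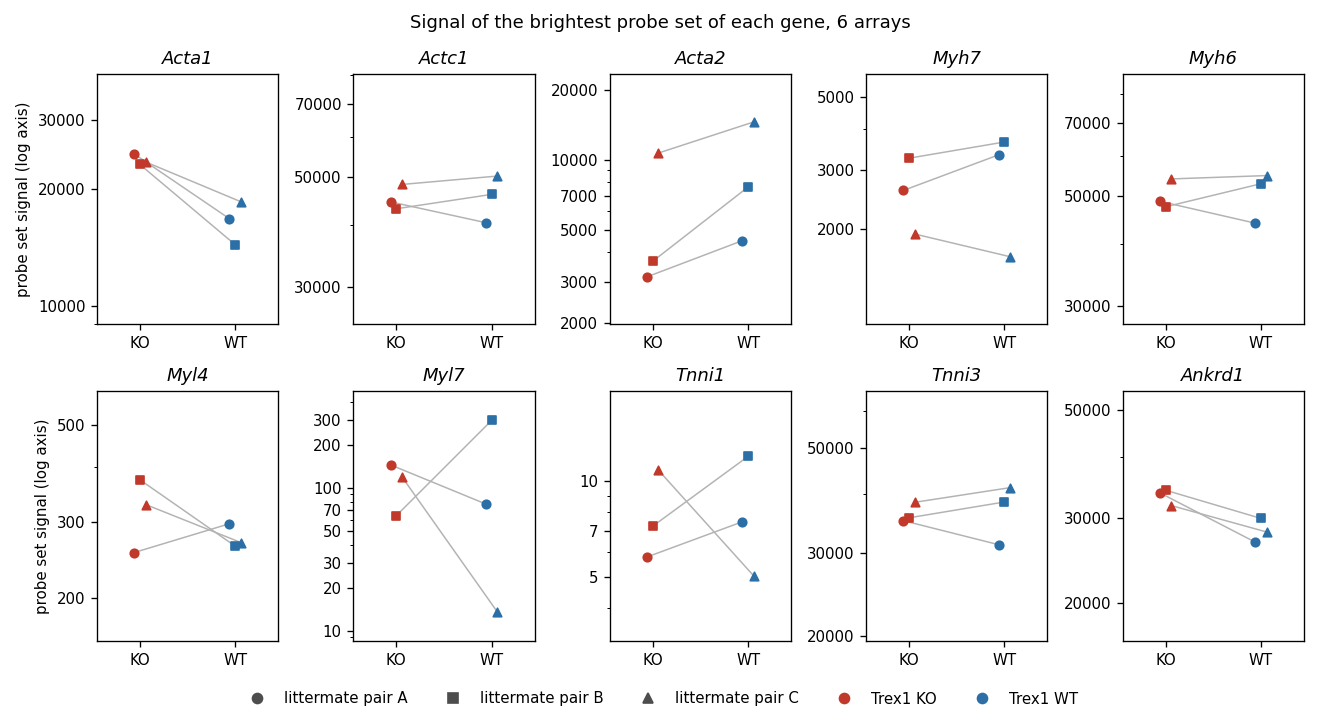
Signal of the brightest probe set of each of the 10 genes (log axis, a different range in each panel), Trex1 KO on the left and Trex1 WT on the right, with grey lines joining littermates. Acta1 and Ankrd1 were higher in the Trex1 KO animal of all 3 pairs and Acta2 lower in all 3, whereas the other genes differed in sign between pairs.

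For Acta1, Ankrd1 and Acta2, whose differences had 1 sign in all pairs, and for Actc1, the adult counterpart of the fetal actins, the 250 bases upstream of the annotated start are printed from RefSeq on GRCm38.p6, 5′ to 3′ on the gene's strand (the minus strand for each). All 10 genes matched an entry, with 12 windows. Capitals mark CArG boxes, the sites of serum response factor, CArG boxes with 1 mismatch in the centre, and MCAT elements, the TEAD factor sites spelled CATTCC on either strand. Windows are chr8:123894776-123895025 for Acta1, chr2:114052876-114053125 for Actc1, chr19:34255374-34255623 for Acta2 and chr19:36119845-36120094 for Ankrd1.
Acta1: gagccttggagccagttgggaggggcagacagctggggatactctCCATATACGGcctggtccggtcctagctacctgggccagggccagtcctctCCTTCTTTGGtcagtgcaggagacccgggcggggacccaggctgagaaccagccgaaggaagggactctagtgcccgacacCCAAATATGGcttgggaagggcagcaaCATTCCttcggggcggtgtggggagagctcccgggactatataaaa
Actc1: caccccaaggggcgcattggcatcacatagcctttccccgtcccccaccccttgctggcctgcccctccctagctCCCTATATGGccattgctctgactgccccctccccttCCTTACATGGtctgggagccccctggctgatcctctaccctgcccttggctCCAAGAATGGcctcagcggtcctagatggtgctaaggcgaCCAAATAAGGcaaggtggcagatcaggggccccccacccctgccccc
Acta2: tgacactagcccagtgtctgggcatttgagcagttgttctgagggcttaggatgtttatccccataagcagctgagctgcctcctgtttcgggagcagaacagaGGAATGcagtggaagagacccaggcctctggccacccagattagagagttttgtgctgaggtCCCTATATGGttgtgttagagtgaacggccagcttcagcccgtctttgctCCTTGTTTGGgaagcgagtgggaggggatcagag
Ankrd1: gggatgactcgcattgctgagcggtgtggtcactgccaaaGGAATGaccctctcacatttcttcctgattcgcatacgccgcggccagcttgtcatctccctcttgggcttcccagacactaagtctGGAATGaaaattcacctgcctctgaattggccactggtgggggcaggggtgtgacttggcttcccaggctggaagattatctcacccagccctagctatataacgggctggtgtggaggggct

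Acta1 and Actc1 each held 1 CArG box, with 2 and 3 further single-mismatch copies, and Acta2 held 2 single-mismatch copies and no full box. The CArG box of Acta1 lay 73 to 64 bases before the annotated start and that of Actc1 47 to 38 bases before it. Whether transcription begins at the annotated start was not tested. Myl7 was the only other member with a full box, and 1.47% of 32817 mouse promoter windows of the same length held one. Single-mismatch copies were found in 7.25% of windows and MCAT in 12.6%. Ankrd1 held 2 MCAT elements and no CArG box of either kind, Acta1 and Acta2 held 1 MCAT each, and Actc1 none. The matches did not overlap one another in the members' windows. A match describes the letters of a window and no binding was measured.

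Acta1, which encodes the actin of skeletal muscle and of the fetal heart, had the smallest p among the members. Its probe set had signals of 24521, 23049 and 23398 in Trex1 KO hearts, against 16730, 14351 and 18495 in Trex1 WT hearts. Every Trex1 KO array was above every Trex1 WT array, and the Trex1 KO animals lay closer together. Group means were 23656 ± 769 in Trex1 KO and 16526 ± 2080 in Trex1 WT (SD, n = 3 each). The log2 difference was 0.52 (SE 0.11, 95% interval 0.28 to 0.77), a 1.44-fold difference, and littermates differed by 0.55, 0.68 and 0.34. It ranked 105th of 27022 by p, which was not enough after adjustment (limma, unadjusted p = 0.000693, adjusted p = 0.175, and adjusted p = 0.0597 in the blocked fit). The Actb ratio separated the same groups, and with it as a covariate the Acta1 difference was 0.23 (limma adjusted p = 0.885). Ordered by how far littermates differed in the Actb ratio, the pairs had the same order in Acta1. Pair B was first, with Actb ratios of 1.60 (Trex1 KO) against 2.29 (Trex1 WT) and the largest Acta1 difference, 0.68. Next came pair A, with 1.66 against 2.09 and 0.55. Pair C was last on both, with 1.68 against 1.80 and 0.34. Only 3 pairs were ordered, and Ankrd1 did not have this order, with its largest differences in pair A (0.34 and 0.56 on its 2 probe sets). Whether RNA quality set the order in Acta1 was not tested. The 18S signal was lower in the Trex1 KO animal of every pair, at 2834, 1907 and 798 in Trex1 KO hearts, against 12811, 13708 and 924 in Trex1 WT hearts, with overlap. Its part in the Acta1 and Ankrd1 differences was not tested. Acta1 is also made in skeletal muscle. Of 7 skeletal muscle markers 2 lay above the highest bacterial control on average, with Myh1, Myh2, Myh4, Tnnt3 and Tnnc2 below it. The 7 markers summed to 356 to 501 in Trex1 KO and 293 to 530 in Trex1 WT. Myh2 had 10.5, 55.4 and 143 in Trex1 KO hearts, against at most 25.2 in Trex1 WT hearts. Of 7 tested genes in a longer list of skeletal isoforms, 4 had a positive difference, Myl1 (0.46) and Tpm3 (0.34) being the brightest. Tnnt1, Tnni2 and Mybpc2 had negative ones (-0.19, -0.36 and -0.26), and 0 were called. The part of skeletal muscle in the Acta1 difference was not tested.

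Ankrd1, the cardiac ankyrin repeat protein that links titin to gene regulation under strain, followed on both of its probe sets. The brighter gave 33774, 34201 and 31793 in Trex1 KO hearts, against 26729, 29915 and 28048 in Trex1 WT hearts. The dimmer gave 34521, 34467 and 30704 in Trex1 KO hearts, against 23417, 23972 and 26015 in Trex1 WT hearts. On neither probe set did the groups overlap. The differences were 0.24 (SE 0.09, 95% interval 0.03 to 0.44) and 0.44 (SE 0.10, 95% interval 0.23 to 0.65), and neither passed in limma (adjusted p = 0.866 and 0.210, and 0.484 and 0.132 with the block). Pair A gave 0.34 and 0.56, pair B 0.19 and 0.52, and pair C 0.18 and 0.24. Both probe sets gave a positive difference in each pair, of unequal size. Adding the Actb ratio to the model gave 0.28 and 0.30 (limma adjusted p = 0.871 and 0.866).

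Actc1, the alpha-actin of the adult heart, did not separate the groups. Signals were 44543, 43151 and 48288 in Trex1 KO hearts, against 40462, 46117 and 50195 in Trex1 WT hearts. The groups overlapped, the log2 difference was -0.00 and the 95% interval ran from -0.24 to 0.23 (limma adjusted p = 0.999).

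Acta2 encodes the actin of vascular smooth muscle, which is also made in the fetal heart and in activated fibroblasts. Its main probe set had signals of 3145, 3666 and 10697 in Trex1 KO hearts, against 4496, 7642 and 14548 in Trex1 WT hearts. The Trex1 KO animal was lower in every pair, by 0.51, 1.06 and 0.44 log2 units in pairs A, B and C, but the groups overlapped because pair C was far brighter than the others. The difference was -0.67 (SE 0.48, 95% interval -1.73 to 0.39, limma adjusted p = 0.955). With littermate pairs as a block the same difference had an SE of 0.12 and a 95% interval of -0.95 to -0.40 (limma adjusted p = 0.0723). The other Acta2 probe sets, with mean signals of at most 55.1 in either group, lay under the filter on dim probe sets and were not tested. Of 9 tested genes in a list of other smooth muscle markers, 1 had a positive and 8 a negative difference, with a median of -0.13 and 0 called in either fit. The positive one, Tagln, a smooth muscle actin-binding protein, also had the smallest p, with signals of 436, 531 and 481 in Trex1 KO hearts, against 294, 421 and 356 in Trex1 WT hearts (log2 difference 0.43, limma adjusted p = 0.871). The 6 fibroblast markers, all above the highest bacterial control, summed to 37490 to 41304 in Trex1 KO and 32175 to 40108 in Trex1 WT. The brightest of them, Dcn, had means of 22535 in Trex1 KO and 20212 in Trex1 WT and so weighed most in the sum. Of the 6, 5 had a positive difference, Pdgfra had a negative one (log2 difference -0.32), and 0 were called. Fewer cells of a type and less RNA per cell cannot be told apart in such bulk tissue.

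Myh7, the beta myosin heavy chain of the fetal rodent ventricle, was lowest in both animals of pair C. Signals were 2611, 3267 and 1927 in Trex1 KO hearts, against 3344, 3656 and 1646 in Trex1 WT hearts. The Trex1 KO animal was the lower of its pair in A and B and the higher in C, and the groups overlapped. The log2 difference was -0.10 (SE 0.28, 95% interval -0.73 to 0.53, limma adjusted p = 0.987).

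Myh6, the alpha myosin heavy chain that dominates the adult mouse ventricle, gave overlapping groups on its brightest probe set, with 48682, 47459 and 54019 in Trex1 KO hearts, against 43983, 52820 and 54867 in Trex1 WT hearts (log2 difference -0.01, 95% interval -0.26 to 0.24, limma adjusted p = 0.997). A dimmer Myh6 probe set gave another pattern, with 5350, 5601 and 7920 in Trex1 KO hearts, against 4072, 1893 and 8363 in Trex1 WT hearts. Trex1 WT B stood lowest there, and the log2 difference was 0.62 with a 95% interval of -0.30 to 1.55 (limma adjusted p = 0.955). A dimmer probe set shared by Myh7 and Myh6 had the same direction, with 2101 in Trex1 WT B and at least 4783 elsewhere (log2 difference 0.82, limma adjusted p = 0.955). Trex1 WT B also had the highest Actb 3' to 5' ratio, 2.29. With that ratio as a covariate both dimmer probe sets had negative differences, -1.12 and -1.06 (limma adjusted p = 0.707 and 0.796). The ratio separated Trex1 KO from Trex1 WT without overlap, and the fit with it left 3 residual degrees of freedom. What part the ratio had in the pattern of the dimmer probe sets was not tested. The bright shared probe set had a difference of -0.02 (limma adjusted p = 0.993).

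Tnni3, the troponin I of the adult heart, also gave overlapping groups. Signals were 35121, 35624 and 38422 in Trex1 KO hearts, against 31242, 38479 and 41267 in Trex1 WT hearts (log2 difference -0.02, 95% interval -0.27 to 0.24, limma adjusted p = 0.996). Its fetal counterpart Tnni1, the slow skeletal troponin I, was at background, with 5.8, 7.24 and 10.8 in Trex1 KO hearts, against 7.47, 12.0 and 5.06 in Trex1 WT hearts. No array exceeded the highest bacterial control, so that no level of Tnni1 could be compared.

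The atrial light chains were dim. Myl4, the essential light chain of the atria and of the fetal ventricle, had 255, 374 and 328 in Trex1 KO hearts, against 297, 263 and 268 in Trex1 WT hearts, with overlap between the groups. The log2 difference was 0.18 (SE 0.18, 95% interval -0.22 to 0.59, limma adjusted p = 0.959), and the dimmer Myl4 probe set gave 0.20. Myl7, the atrial regulatory light chain, was spread widely, with 145, 63.95 and 119 in Trex1 KO hearts, against 77.1, 297 and 13.6 in Trex1 WT hearts. It exceeded the highest bacterial control on 4 of 6 arrays. Trex1 WT B was the highest and Trex1 WT C the lowest of all, and the difference of 0.34 had a 95% interval of -1.21 to 1.89 (limma adjusted p = 0.979).

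**Figure D2:**
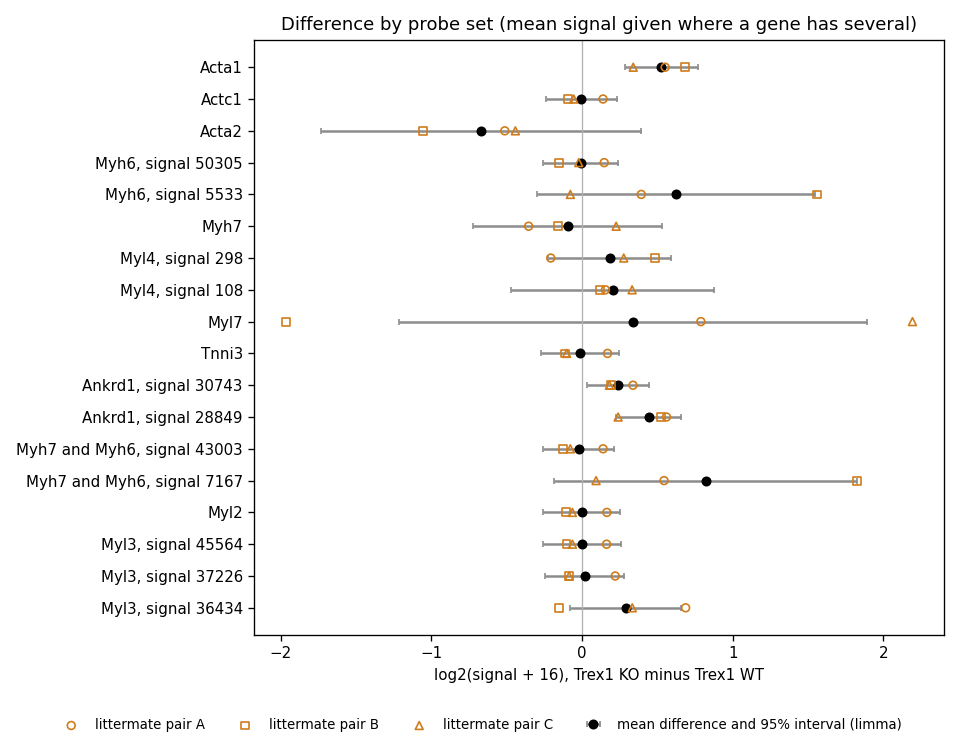
Log2 difference, Trex1 KO minus Trex1 WT, for the tested probe sets of the members, of the ventricular light chains Myl2 and Myl3 and of the Myh7 and Myh6 shared sets, with black points for the mean, bars for the 95% interval from limma and open symbols for each littermate pair. Intervals were narrow around 0 for Actc1, Tnni3, Myl2, the brightest Myh6 set and the brighter Myl3 sets, ran from -0.08 to 0.66 for the dimmest Myl3 set, lay above 0 for Acta1 and both Ankrd1 probe sets before adjustment, and were wide for Acta2, Myl7 and the dimmer Myh6 sets.

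The bright adult isoforms need to be read with the top of the signal range in view. The brightest probe sets of Actc1, Myh6 and Tnni3, and the bright set shared by Myh7 and Myh6, ranked among the 50 brightest probe sets by mean signal, as did those of the ventricular light chains Myl2 and Myl3. Those 50 had mean signals from 36434 to 52847, and most of them followed a common pattern over the arrays, with medians of -0.06, -0.04 and 0.07 in Trex1 KO hearts and -0.19, 0.08 and 0.14 in Trex1 WT hearts, as log2 deviations from the mean. Of the 50, 40 stayed within 0.1 log2 units of these medians on every array, against 10 of the 1000 probe sets ranked 1001 to 2000 in brightness. The medians were taken from the 50 themselves and not from the 1000, so the comparison favours the 50 by construction. The farthest was the dimmest Myl3 probe set, which departed by up to 0.33. Actc1, Myh6 and Tnni3 departed from this pattern by up to 0.054, 0.037 and 0.036 log2 units. A hybridisation control that is not mouse RNA, the phage cre spike, departed from it by up to 0.075. Before any subtraction the median SD over arrays was 0.12 in the 50 brightest and 0.13 in the dimmer 1000, with mean signals of 3907 to 7606. After that pattern was subtracted, the 50 brightest had a median SD of 0.04, against 0.18 for the dimmer 1000. The SD of the 1000 thus rose on subtraction of a pattern that they had not set. The differences for these adult isoforms, and the ratios that use them, were taken on signals that share this pattern. Whether these signals had reached the top of the scanner's range was not tested. Acta1 departed from the pattern by up to 0.54, Ankrd1 by up to 0.27, Acta2 by up to 1.07 and Myh7 by up to 0.82.

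**Figure D3:**
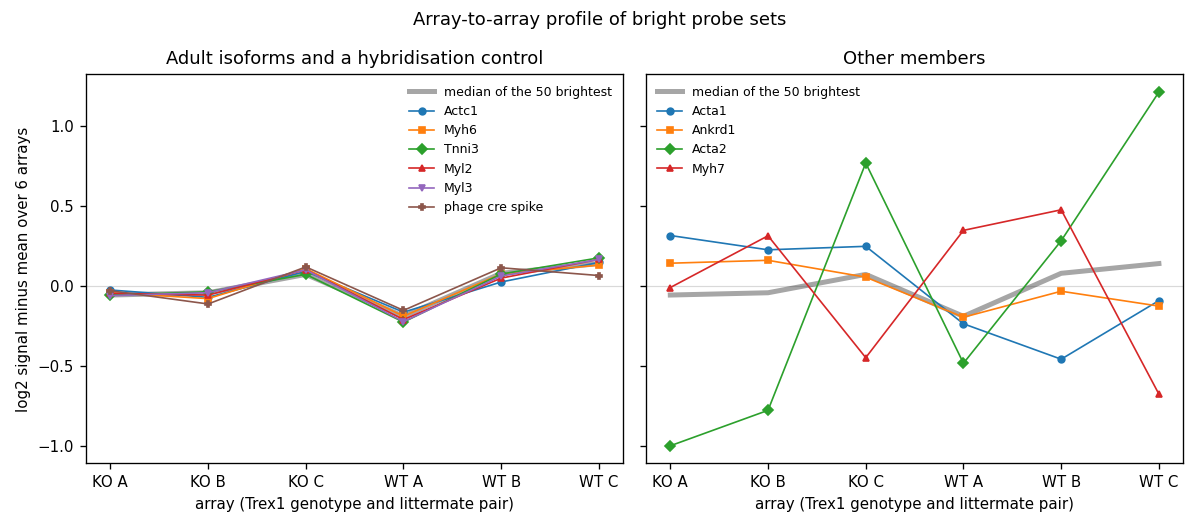
Log2 signal minus its mean over the 6 arrays (vertical axis) on each array (horizontal axis), for adult isoforms and the phage cre spike on the left and for 4 other members on the right, with the median of the 50 brightest probe sets in grey. The adult isoforms departed from the grey line by up to 0.054, whereas Acta2 and Myh7 departed from it by up to 1.07 and 0.82.

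Isoform ratios within an array set the fetal, atrial or skeletal form against its adult ventricular counterpart. Every denominator (Actc1, Myh6, Myl3, Myl2 and Tnni3) was among the 50 brightest probe sets and followed their pattern, so that the ratios largely restate their numerators against it. Among 6 such ratios, the Acta1 over Actc1 ratio was the one whose groups did not overlap. On the log2 scale it was -0.86, -0.90 and -1.04 in Trex1 KO hearts, against -1.27, -1.68 and -1.44 in Trex1 WT hearts. The means were -0.94 ± 0.10 in Trex1 KO and -1.47 ± 0.21 in Trex1 WT (SD, n = 3 each), a difference of 0.53, positive in 3 of 3 pairs (0.41, 0.78 and 0.39 in pairs A, B and C). A two-sided exact permutation test gave p = 0.1, the lowest possible with 3 arrays a group, and 0.6 after Benjamini-Hochberg adjustment over the 6 ratios. Taken singly, Acta1 differed by 0.52 and Actc1 by -0.00. For Acta2 over Actc1, Myh7 over Myh6 and the atrial ratios the adjusted p was 0.96.

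Acta2 over Actc1 went the other way, with -3.82, -3.55 and -2.17 in Trex1 KO hearts, against -3.17, -2.59 and -1.79 in Trex1 WT hearts. It was lower in the Trex1 KO animal of 3 of 3 pairs, by 0.65, 0.96 and 0.39, and the difference of -0.67 had an exact permutation p of 0.4. Over littermate pairs the sign-flip permutation p was 0.25, the smallest that 3 pairs allow. The difference depended on single arrays, at -0.30 without Trex1 WT C, -0.35 without Trex1 KO A and -1.17 without Trex1 KO C. The fetal actins had opposite signs in each pair, Acta1 positive and Acta2 negative.

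Myh7 over Myh6, the myosin ratio most often used for the fetal programme in rodents, was -4.21, -3.85 and -4.80 in Trex1 KO hearts, against -3.71, -3.85 and -5.05 in Trex1 WT hearts. The groups overlapped fully and the difference was -0.09 (exact permutation p = 0.8). Against the dimmer Myh6 probe set it was -0.72, and littermates differed by -0.75, -1.72 and 0.30 (exact permutation p = 0.5). Neither version had the same sign in all pairs.

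The atrial ratios did not separate the groups. Myl4 over Myl3 averaged -7.10 ± 0.26 in Trex1 KO and -7.28 ± 0.28 in Trex1 WT (SD, n = 3 each, exact permutation p = 0.5). Myl7 over Myl2 averaged -8.57 ± 0.50 in Trex1 KO and -8.91 ± 1.77 in Trex1 WT (SD, n = 3 each, exact permutation p = 0.8), with pair differences of 0.62, -1.86 and 2.26. The Tnni1 over Tnni3 ratio had a numerator at background and could not be compared.

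**Figure D4:**
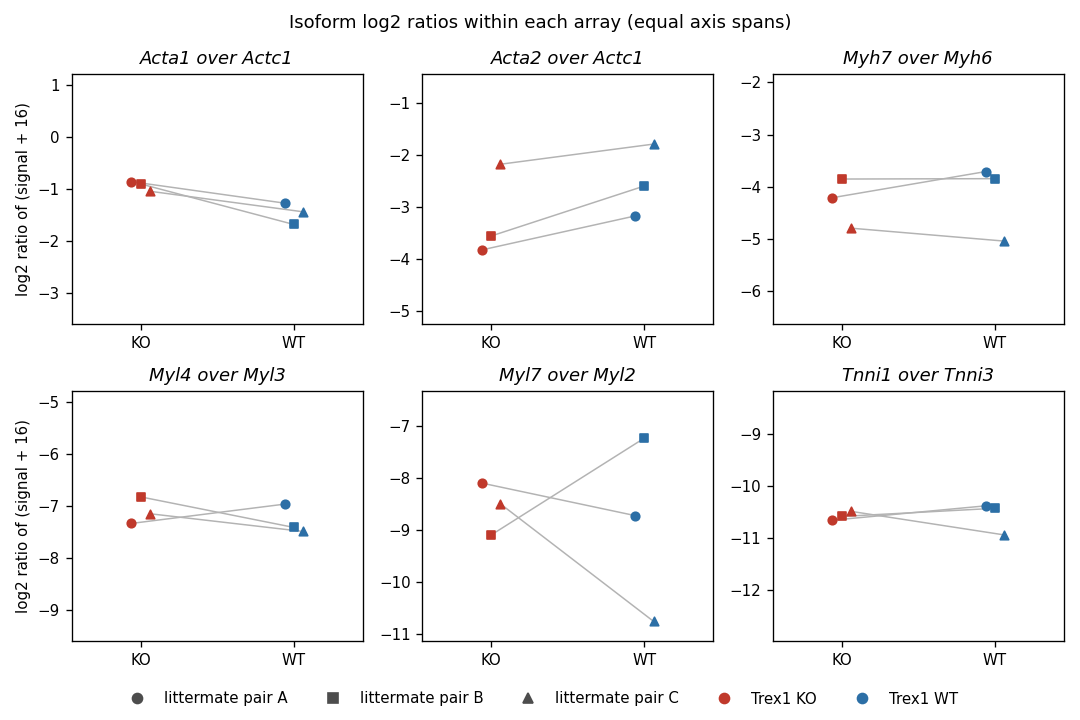
Log2 ratio of the fetal, skeletal or atrial isoform to its adult ventricular counterpart on each array, Trex1 KO on the left and Trex1 WT on the right, with lines joining littermates and equal spans on all vertical axes. Acta1 over Actc1 was higher in Trex1 KO in 3 of 3 pairs without overlap, and Acta2 over Actc1 was lower in 3 of 3 with overlap. The numerator of Tnni1 over Tnni3 was at background.

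Pair C stood apart from the other litters in Acta2 and Myh7. In the fit with pair and genotype, Acta2 was 1.48 log2 units higher in pair C than in the mean of pairs A and B (SE 0.13, 95% interval 1.19 to 1.77, limma adjusted p = 0.00323, and 0.562 when the variances were moderated without an intensity trend). It was the 1 member of 9 called in this contrast, where 0.037% of all tested probe sets were called higher. Myh7 was 0.84 units lower in pair C (SE 0.12, 95% interval -1.12 to -0.56) and did not pass (limma adjusted p = 0.0587). Acta1 and Ankrd1 differed little between litters, by 0.12 and -0.05 (limma adjusted p = 0.673 and 0.845). Pair C was also the pair with high Xist, at least 6747 against at most 119 in pairs A and B, so that litter and sex cannot be told apart with 1 such pair. The 18S signal was lowest in both animals of pair C as well, and its part in the litter difference was not tested.

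Genes of 6 related lists were compared in the same fits. Of their 71 tested genes, 0 were called in limma without the block, where 0.218% of all tested probe sets were called higher and 0.0259% lower. At an unadjusted p under 0.05 there were 3, against 5.44% of all tested probe sets, and with the block 1 was called higher, against 0.389%. These lists were chosen with earlier results of these data known. The 19 tested genes of the ventricular sarcomere had a median difference of -0.00 and lay between -0.09 and 0.17. The smallest p in this list was that of Tcap, which anchors titin at the Z-disc, with 31723 ± 2629 in Trex1 KO and 28272 ± 3876 in Trex1 WT (SD, n = 3 each, log2 difference 0.17, limma adjusted p = 0.955). Of these 19 genes, Myl2, Myl3, Tnnt2 and Tpm1 were among the 50 brightest.

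Among skeletal muscle isoforms 7 of 16 genes were bright enough to test, the median was 0.21 and 0 were called. That median was 0.027 without Trex1 WT C, 0.083 without Trex1 KO C and 0.094 without Trex1 WT A. It was highest, at 0.33, when Trex1 KO A was left out. Myl1, the essential light chain of fast skeletal muscle, had 4535, 6368 and 5691 in Trex1 KO hearts, against 5351, 3143 and 3726 in Trex1 WT hearts (log2 difference 0.46, limma adjusted p = 0.890). Its groups overlapped. In the list of titin-linked stress sensors and stress peptides, 0 of 12 tested genes were called and the median was 0.01. Trim54, a microtubule-binding ubiquitin ligase of muscle, had the smallest p there (log2 difference 0.27, limma adjusted p = 0.942).

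Of the atrial markers 4 of 8 could be tested, with a median of 0.27 that was 0.080 without Trex1 WT B and 0.46 without Trex1 WT C. Nppa, the atrial natriuretic peptide that the fetal ventricle also makes, had 28145, 30449 and 35782 in Trex1 KO hearts, against 10934, 18483 and 19079 in Trex1 WT hearts. Its groups did not overlap and its pair differences were 1.36, 0.72 and 0.91, with a mean of 0.996 that did not pass without the block (limma adjusted p = 0.126) and passed with it (limma adjusted p = 0.00886). Of 6 markers of atrial muscle, 3 lay above the highest bacterial control on average in these same hearts, Nppa, Myl4 and Myl7. The others, Sln, Mybphl and Bmp10, lay below it.

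Among 20 tested regulators of isoform choice, 9 had a positive and 11 a negative difference, the median was -0.01 and 0 were called. Thrb, a thyroid hormone receptor, a class of factor known to set the balance of Myh6 and Myh7 in rodents, had the smallest p, with 137 ± 16.4 in Trex1 KO and 96.7 ± 12.4 in Trex1 WT (SD, n = 3 each). Its log2 difference was 0.44 and did not pass (limma adjusted p = 0.955). The other thyroid hormone receptor of the list, Thra, was brighter and had the opposite sign. It had 1091 ± 155 in Trex1 KO and 1255 ± 235 in Trex1 WT (SD, n = 3 each, log2 difference -0.19, limma adjusted p = 0.956).

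The members that varied most over the 6 arrays were Myl7 and Acta2, with SDs of 1.14 and 0.89 on the log2 scale. The genes nearest to Myl7 in centred log2 values, of 12802 compared over 6 arrays, were Cbln1, Gpm6a and Il18r1, with root mean square differences of 0.39, 0.40 and 0.43. Those nearest to Acta2 were Cd8a, Adam4 and Crb3, at 0.26, 0.30 and 0.31. The 3 neighbours of Acta2 had signals of at most 229.7, where the highest bacterial control reached 69.8 and Acta2 reached 14548.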

How the data were processed

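Biotin-labelled total RNA from 6 ventricle samples was measured on Affymetrix-protocol arrays. The deposited values are the authors' summarised probe set intensity, not log-transformed, and MAS5 is the tool that the submitters' processing notes name, without settings. Mean signals after trimming the lowest and highest 2% were 500.0 on every array, so nothing was rescaled. Values were transformed to log2(signal + 16). The 27022 probe sets whose mean reached the 40th percentile of 45037 non-control probe sets went into limma 3.58.1 in R 4.3.3 (lmFit, eBayes with an intensity trend, 4 residual degrees of freedom), with Benjamini-Hochberg adjustment over all of them and a threshold of 0.05, two-sided. The fitting code was tested on simulated data. The design text names the littermates. Deviations from group means correlated at 0.151, 0.192 and 0.147 across probe sets within pairs A, B and C and between -0.161 and 0.0101 otherwise. The deviations cancel within each group, so these correlations are not independent of one another. A littermate block was fitted as an alternative (2 residual degrees of freedom). Isoform ratios used exact permutation tests over arrays.

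Symbols came from the platform annotation, with 0 changed through a RefSeq gene table. The brightest probe set with a single symbol stood for a gene. The text names all members, their ratio counterparts Myl2 and Myl3, Trex1, the list member with the smallest p or those past the threshold, and the 3 genes nearest to each of the 2 most variable members. Marker genes, RNA quality transcripts and Thra, given beside a result, were named after their values were seen. Members and lists were chosen with earlier results of these data known. Precision is limited by the number of arrays.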

Additional observations from a re-analysis of the deposited data

How the results depend on the processing

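The count of members called was 0 in each direction under all 20 alternative settings. The Acta1 difference lay between 0.23 and 0.62 and that of Ankrd1 between 0.19 and 0.34 over these settings, and Acta2 between -1.44 and -0.23, with 0 passing (limma adjusted p from 0.0531 for Acta1). The lowest was reached when each array was centred on its 50 brightest probe sets, a setting chosen after seeing the data. Except where stated, the cause of a change was not tested. Without single arrays, probe sets called higher ranged from 33 (without Trex1 KO B) to 85, with 38 without Trex1 KO C, and lower from 3 (without Trex1 KO A) to 9, with 4 without Trex1 WT A. With the replicate block the counts were 105 and 16, without an intensity trend 24 and 4, and 8 and 1 once the Actb ratio was a covariate. Without littermate pair A they were 23 and 0 (4 arrays remain), without pair B 12 were lower, and without pair C 34 and 4.

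Differences near 0 turned sign. For Actc1 and Tnni3 the values were 0.017 and 0.020 with quantile normalisation, 0.034 and 0.023 with centring on the 50 brightest, 0.041 and 0.033 without pair B and 0.021 and 0.029 without pair C. For Myh6 they were 0.046 with quantile normalisation, 0.028 with centring on the 50 brightest, 0.062 without pair B and 0.31 with the mean of its probe sets. Myh7 had 0.81 with the Actb covariate and 0.032 without pair A, and Myl7 had -0.59 without pair C. Ranges without single arrays were -0.088 to 0.068 for Actc1, -0.11 to 0.052 for Myh6, -0.13 to 0.069 for Tnni3, -0.46 to 0.11 for Myh7 and -0.50 to 1.20 for Myl7.

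Ratios turned sign as follows. Myh7 over Myh6 was 0.12 without pair A, Myl4 over Myl3 -0.015 without pair B, Myl7 over Myl2 -0.62 without pair C, and Tnni1 over Tnni3 -0.057 with quantile normalisation and -0.22 without pair C. Without single arrays the ranges were -0.51 to 0.17 for Myh7 over Myh6, -0.58 to 1.17 for Myl7 over Myl2, and -0.17 to 0.11 for Tnni1 over Tnni3, whose numerator was at background, so that its sign carries no reading. Acta1 over Actc1 stayed between 0.40 and 0.62. In littermate pairs its sign-flip permutation p was 0.25, the smallest that 3 pairs allow.

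For pair C against pairs A and B, Acta2 kept 1.48 without an intensity trend but lost its call (limma adjusted p = 0.562), and it ranged from 1.31 to 1.65 without single arrays, passing each time. Myh7 ranged from -1.08 to -0.60 and passed without Trex1 KO A, B or C or Trex1 WT B (limma adjusted p from 0.00108). Acta1 ranged from -0.023 to 0.26, Myl4 from -0.13 to 0.16 (-0.028 with quantile normalisation) and Myl7 from -2.53 to 0.25, passing without Trex1 KO B (limma adjusted p = 0.0464).

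One atrial marker was called under quantile normalisation, centring on the 50 brightest and the replicate block (1 each). With the Actb covariate the medians were -0.32 for atrial markers, -0.12 for stress sensors and -0.11 for the ventricular sarcomere. Without pair C they were -0.10 for skeletal isoforms and 0.10 for stress sensors.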
